A study of Equus asinus with 2 samples.

Results

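Collagen genes were described in single-cell RNA from 2 libraries of fetal donkey (Equus asinus): dissected gonad with mesonephros, the transient embryonic kidney beside the forming gonad, taken 4 weeks into gestation, and a dissection that the labels call ovary, taken at 8 weeks. The genes were every feature whose deposited name is COL, a number, A and a number, which gave 43 of 38517 features in both libraries. Of these, 11 are fibrillar collagens, 8 are basement-membrane collagens (the 6 type IV chains with COL15A1 and COL18A1) and 24 are other collagens, and all 43 had UMIs (unique molecular identifiers, tags that let each captured RNA be counted once) in both libraries. The labels name no treatment or genotype and do not say how many fetuses a library holds, and each tissue was digested with collagenase IV and DNase I before capture. Because each group is 1 library, no test between stages was possible, and stage, dissected tissue and library cannot be told apart. Brackets hold 95% intervals that reflect counting alone, without any spread among animals.

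Collagens are secreted or membrane-bound proteins built from 3 chains wound into a triple helix. Fibrillar collagens form the tensile fibres of connective tissue, type IV collagens form the sheet-like network of basement membranes under epithelia and around vessels, and the remaining families make beaded filaments, sit on fibre surfaces or span the cell membrane. In a fetal gonad they form the interstitial matrix and the basement membranes that bound cords and vessels.

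At 4 weeks the files hold 8938 barcodes and 122341903 UMIs, and at 8 weeks 14593 barcodes and 155128130 UMIs, with medians of 7728 and 5877 UMIs per barcode. Of 8912 and 14590 cells kept, classes were gated on at least 3 marker genes that include no collagen. The cells were 1471 and 6346 stroma-like, 117 and 401 mural-like (pericyte, smooth muscle or myoid), 1434 and 467 endothelial-like and 599 and 675 Sertoli-like. A further 129 and 247 were steroidogenic-like, 470 and 779 germ cell-like, 136 and 773 macrophage-like and 113 and 67 other leukocyte-like. The 4-week library also held 708 mesonephric tubule-like, 139 distal tubule-like, 93 podocyte-like and 397 erythroid-like cells. At 8 weeks 0 cells passed as mesonephric or distal tubule-like, so each share may be up to 0.0206%. Cells passing no gate numbered 2762 and 3815, and cells passing several gates, which stayed out of every class, numbered 338 and 971. The stroma-like gate had 96 and 145 cells just inside its limit and 342 and 2385 ungated cells just below it, so that class is a range of marker level rather than a sharp type.

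Labels and data differed in places. The library labelled ovary held cells with AMH and SOX9, the Sertoli cell genes of the testis, while FOXL2, a granulosa cell gene, stood at 1.55 CPM over the whole library and 0 cells passed the pre-granulosa gate. The labels give the cell type of both libraries as germ cells, and germ cell-like cells were 5.27% and 5.34% of the cells kept. The libraries shared 38 barcode sequences. Among the 24 collagen genes of at least 100 CPM in some class, 82 ratios were past 2-fold. Without the shared barcodes every one of these 82 stayed past it in the same direction.

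Levels below are CPM: for each class, a gene's summed UMIs were divided by all UMIs of those cells and multiplied by 1000000. They are given for 4 and then 8 weeks. They are not corrected for gene length, so a gene is compared across classes and not with another gene. Collagens took 0.290% of all UMIs at 4 weeks and 0.529% at 8 weeks. Stroma-like cells held 35.0% and then 72.0% of each library's collagen UMIs, endothelial-like cells 15.0% and 3.34%, and mural-like cells 2.83% and 3.47%. Ungated cells held 27.5% and 6.17%. Of the cells kept, stroma-like cells were 16.5% and 43.5%, endothelial-like cells 16.1% and 3.2%, and mural-like cells 1.31% and 2.75%. A class's share of collagen UMIs depends on its part of the library as well as on its level. These shares alone therefore show no change of level within a class.

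Droplet libraries carry free RNA, and a droplet can hold more than 1 cell, so a class not known for making fibrillar collagen can still show UMIs of it. Macrophage-like cells were taken as such a class, and their summed fibrillar level was 124 CPM (102 to 149) at 4 weeks and 428 CPM (409 to 448) at 8 weeks. In them COL1A1 stood at 33.8 and 115 CPM, COL1A2 at 34.9 and 120.4 CPM and COL3A1 at 22.5 and 112 CPM. The macrophage-like level of the main fibrillar genes was thus higher in the 8-week library. Stroma markers summed to 41.7 and 176 CPM in these cells, with 3 and 0 of 10 markers at 0, and 0 and 80 further cells passed both the stroma and the macrophage gate. Free RNA, doublets and expression by the cells themselves were not told apart. The basement-membrane sum in the same cells moved little, at 68.8 CPM (52.6 to 88.3) at 4 weeks and 83.8 CPM (75.3 to 93.0) at 8 weeks. Erythroid-like cells at 4 weeks held a fibrillar sum of 158 CPM (144 to 173) and a basement-membrane sum of 122 CPM (109.7 to 135). At 8 weeks only 33 cells were erythroid-like, and no level is given for them.

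**Figure D1:**
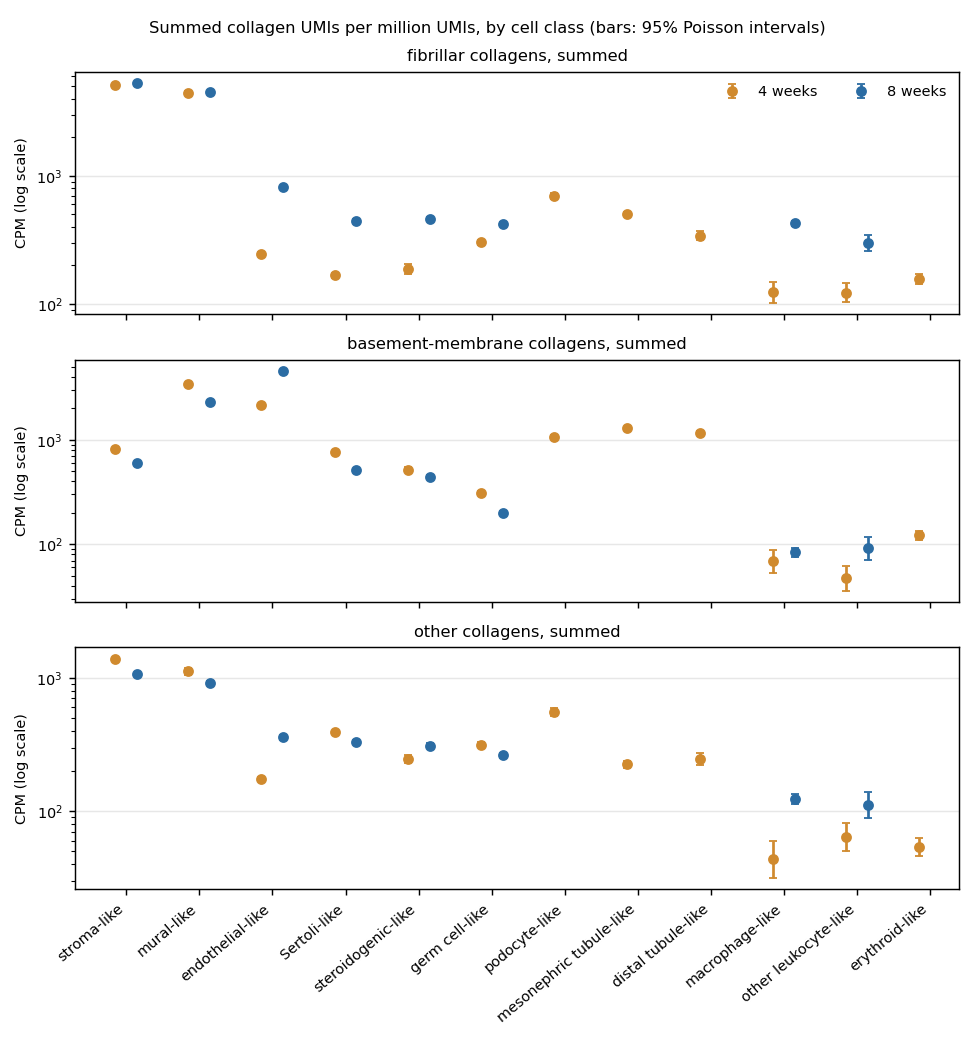
Summed CPM (log scale) of the fibrillar, basement-membrane and other collagens in 12 cell classes, with 4 weeks in orange, 8 weeks in blue and bars giving 95% Poisson intervals. Fibrillar sums lay between 4472 and 5303 CPM in stroma-like and mural-like cells and at most at 812 CPM elsewhere, while the basement-membrane sum was highest in mural-like cells at 4 weeks and in endothelial-like cells at 8 weeks.

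Fibrillar collagens were at their highest in stroma-like and mural-like cells at both stages. The summed fibrillar level in stroma-like cells was 5089 CPM (5055 to 5123) at 4 weeks and 5303 CPM (5288 to 5319) at 8 weeks, and in mural-like cells 4472 CPM (4349 to 4598) at 4 weeks and 4485 CPM (4417 to 4554) at 8 weeks. Both classes thus kept nearly the same sum in the 2 libraries. In stroma-like cells the direction of the small difference was not stable: the sum was 5817 and 5578 CPM with a gate of 2 times the marker level, and 4965 and 4875 CPM with the macrophage-like level subtracted. Across single stroma-like cells the fibrillar level had a median of 4566 CPM at 4 weeks, with a 10th percentile of 2768 and a 90th of 7484, and a median of 4991 CPM at 8 weeks, with 2752 and 8614. The cells of the class thus spread over more than 2-fold within each library, a spread that includes counting noise.

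COL1A1 and COL1A2 encode the chains of type I collagen, the main fibre protein of connective tissue. In stroma-like cells COL1A1 was at 1359 CPM (1342 to 1377) at 4 weeks and 1456 CPM (1448 to 1465) at 8 weeks, and COL1A2 at 1873 CPM (1852 to 1893) at 4 weeks and 1821 CPM (1812 to 1829.7) at 8 weeks. In mural-like cells they were at 899.95 and 1119.9 CPM and at 861 and 702 CPM. COL1A2 was therefore about 2 to 3 times as high in stroma-like as in mural-like cells of the same library. COL3A1, whose product forms type III fibres in vessel walls and soft organs, had the other order, at 1779 CPM (1702 to 1859) at 4 weeks and 1873 CPM (1829 to 1918) at 8 weeks in mural-like cells and 1002 and 1194 CPM in stroma-like cells.

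The ratio of COL3A1 to COL1A2 UMIs, which is free of library scaling, shows the same contrast within a class. It was 0.535 (0.525 to 0.545) and 0.656 (0.651 to 0.661) in stroma-like cells at 4 and 8 weeks, and 2.07 (1.91 to 2.23) and 2.67 (2.55 to 2.79) in mural-like cells. COL1A1 per COL1A2 was 0.726 and 0.800 in stroma-like cells and 1.04 (0.955 to 1.14) and 1.60 (1.52 to 1.68) in mural-like cells. Both ratios were higher in mural-like than in stroma-like cells of either library, and higher at 8 than at 4 weeks in both classes. Cells passing both the stroma and the mural gate, 89 and 474, were left out of both classes. The classes kept 117 and 401 mural-like cells, and the effect of leaving those cells out was not tested.

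**Figure D2:**
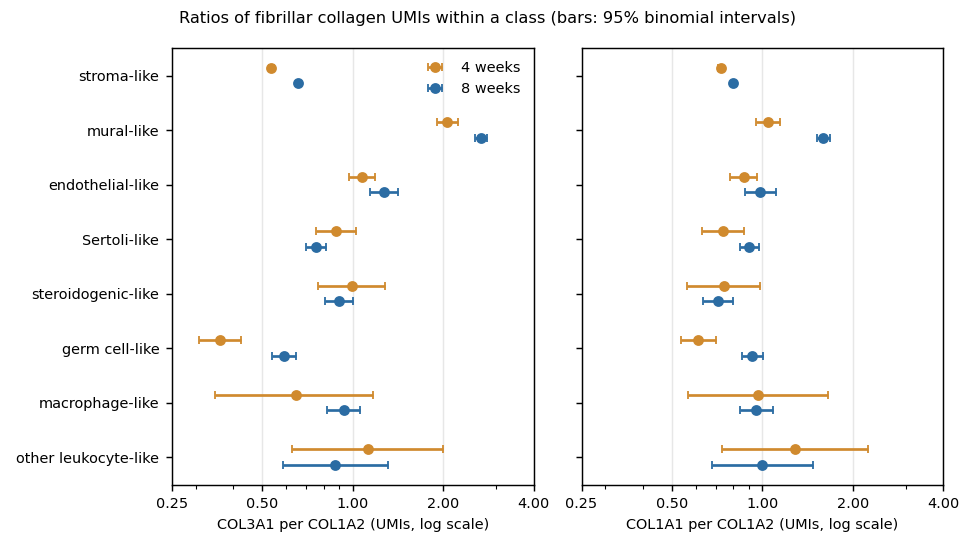
Ratios of COL3A1 and of COL1A1 to COL1A2 UMIs (log scale) in 8 cell classes at 4 weeks (orange) and 8 weeks (blue), with bars giving 95% binomial intervals. The mural-like ratios of COL3A1 to COL1A2, 2.07 and 2.67, lay above those of every other class shown, and the intervals of macrophage-like and other leukocyte-like cells were wide at 4 weeks because few UMIs were counted.

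Among the minor fibrillar chains, COL5A1 and COL5A2, whose type V product starts fibres and limits their width, were at 341 and 304 CPM and 225 and 202 CPM in stroma-like cells. Mural-like cells held 263 and 187 CPM of COL5A1 and 250.5 and 257 CPM of COL5A2. COL5A3 was nearly limited to mural-like cells, with 59.0 CPM (45.7 to 75.1) at 4 weeks and 55.1 CPM (47.8 to 63.2) at 8 weeks when the next highest class held 4.17 CPM at 4 weeks (stroma-like) and 6.04 CPM at 8 weeks (endothelial-like). Podocyte-like cells of the mesonephros held COL5A2 at 201 CPM (179.8 to 224) and mesonephric tubule-like cells at 146 CPM (136 to 156), when macrophage-like cells held 4.51 CPM.

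COL11A1, a type XI chain found in fine fibres, was at 226 CPM (199 to 256) at 4 weeks and 152 CPM (139 to 165) at 8 weeks in mural-like cells and at 74.1 and 53.8 CPM in stroma-like cells. COL24A1, a fibrillar collagen of developing bone and eye, was at 85.9 CPM (81.6 to 90.5) at 4 weeks and 149.6 CPM (147 to 152) at 8 weeks in stroma-like cells, 1.74-fold higher at 8 weeks (1.65 to 1.84). Germ cell-like cells held COL24A1 at 85.2 CPM (79.0 to 91.8) at 4 weeks and 52.8 CPM (48.5 to 57.3) at 8 weeks, above the macrophage-like 4.51 and 10.7 CPM. At 4 weeks the germ cell-like and stroma-like levels of COL24A1 did not differ beyond their counting intervals. COL27A1, a fibrillar collagen of cartilage, was highest in mesonephric tubule-like cells at 158 CPM (148 to 169), ahead of stroma-like cells at 119 and 117 CPM.

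COL2A1, the main chain of cartilage fibres, reached 100 CPM in 1 class only, the distal tubule-like cells, with 105 CPM (89.8 to 122) from 172 UMIs in 139 cells. Podocyte-like cells came next with 27.7 CPM, and macrophage-like cells held 3.38 and 1.66 CPM. The distal tubule-like UMIs were 172 of 4329 COL2A1 UMIs in the 4-week library, so most lay outside that class. Cells passing no gate held COL2A1 at 89.4 and 3.90 CPM. At lower levels it was 2.46-fold lower at 8 weeks (1.94 to 3.13) in Sertoli-like cells, at 19.8 and 8.04 CPM, and also past 2-fold lower in stroma-like cells (5.47 and 1.91 CPM), endothelial-like cells (7.24 and 1.87 CPM) and steroidogenic-like cells (3.13 and 0.535 CPM). Of these only the Sertoli-like level was over 3 times the macrophage-like level at both stages. Erythroid-like cells held COL2A1 at 11.3 CPM (7.80 to 15.7) at 4 weeks. That was above the 4-week stroma-like, endothelial-like and steroidogenic-like levels and below the Sertoli-like level. The part of free RNA in these levels was not tested. COL11A2 stayed under 10 CPM in every class.

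Basement-membrane collagens were highest in endothelial-like and mural-like cells, with mesonephric tubule-like cells next at 4 weeks. Endothelial-like cells held a basement-membrane sum of 2169.97 CPM (2149.9 to 2190.2) at 4 weeks and 4529 CPM (4469 to 4589) at 8 weeks, which was 2.09-fold higher at 8 weeks (2.05 to 2.12). Mural-like cells went the other way, with 3395 CPM (3288 to 3505) at 4 weeks and 2318 CPM (2269 to 2367) at 8 weeks. That was 1.46-fold lower at 8 weeks (1.41 to 1.52). Pericytes, smooth muscle and myoid cells were not told apart in this class, where mural markers summed to 4098 and 8566 CPM. Sertoli-like cells held 758 CPM (743 to 773) at 4 weeks and 513 CPM (501 to 526) at 8 weeks, 1.48-fold lower at 8 weeks (1.43 to 1.52). The order of the classes therefore differed, with mural-like cells highest at 4 weeks and endothelial-like cells highest at 8 weeks.

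COL4A1 and COL4A2 lie next to each other in the RefSeq donkey annotation and encode the chains of the common type IV network. In endothelial-like cells COL4A1 was at 1038 CPM (1024 to 1052) at 4 weeks and 2463 CPM (2419 to 2508) at 8 weeks and COL4A2 at 553 CPM (543 to 563) at 4 weeks and 1029 CPM (1000.1 to 1058) at 8 weeks, 2.37-fold higher at 8 weeks (2.32 to 2.43) and 1.86-fold higher at 8 weeks (1.80 to 1.92). In mural-like cells COL4A1 was at 2048 and 1503 CPM and COL4A2 at 847 and 559.9 CPM. Macrophage-like cells held COL4A1 at 23.7 and 26.8 CPM, far below both. After each cell was thinned to 1000 UMIs, 48.8% (46.1 to 51.4) of endothelial-like cells had a COL4A1 UMI at 4 weeks and 83.7% (79.9 to 87.0) at 8 weeks, with 23 and 32 shallower cells left out. The thinned shares in macrophage-like cells were 1.61% and 3.57%, where the median depth was 5618 and 4978 UMIs per cell. The median depth of endothelial-like cells was 7474.5 and 5684 UMIs. Unthinned, the endothelial-like shares were 87.1% and 95.7%.

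In Sertoli-like cells COL4A1 and COL4A2 were lower at 8 weeks. COL4A1 was at 395 CPM (384 to 406) at 4 weeks and 172 CPM (165 to 179) at 8 weeks, and COL4A2 at 162 CPM (155 to 169) at 4 weeks and 77.1 CPM (72.3 to 82.1) at 8 weeks. These were 2.30-fold lower at 8 weeks (2.19 to 2.42) and 2.1-fold lower at 8 weeks (1.95 to 2.27). The thinned share of Sertoli-like cells with a COL4A1 UMI was 27.4% (23.9 to 31.2) and 14.4% (11.8 to 17.3). Steroidogenic-like cells held COL4A1 at 234 and 199 CPM, and germ cell-like cells at 136 and 74.4 CPM. Mesonephric tubule-like and distal tubule-like cells held 615 and 489 CPM at 4 weeks, more than any gonadal class other than mural-like and endothelial-like cells.

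The other type IV chains had another distribution. COL4A3, COL4A4 and COL4A5 form the type IV network of the kidney's filtration barrier, which podocytes make, and COL4A5 also joins with COL4A6. Podocyte-like cells held COL4A3 at 98.4 CPM (83.7 to 115), COL4A4 at 38.1 CPM (29.2 to 48.9) and COL4A5 at 298 CPM (272 to 326), each the highest of any class. Stroma-like cells came next at 4 weeks, with COL4A5 at 205 CPM (198 to 212) at 4 weeks and 136 CPM (133 to 138) at 8 weeks and COL4A3 at 40.2 and 40.8 CPM. For COL4A6 the order was the other way at 4 weeks, with stroma-like cells at 79.9 and 63.0 CPM and podocyte-like cells at 63.9 CPM (52.2 to 77.5). COL4A3 and COL4A4 overlap in the RefSeq annotation and the strand used in counting is not given in the sources used here, so their separate values are uncertain.

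As a share of all type IV UMIs within a class, these 4 chains made up 60.9% (58.2 to 63.5) in podocyte-like cells and 51.5% (50.6 to 52.4) and 57.1% (56.6 to 57.6) in stroma-like cells. They made up 0.834% and 0.751% in endothelial-like cells and 7.75% and 6.66% in mural-like cells. In Sertoli-like cells the share was 11.3% (10.6 to 12.0) at 4 weeks and 23.5% (22.3 to 24.9) at 8 weeks. There COL4A3 was at 8.24 CPM (6.75 to 9.97) at 4 weeks and 16.9 CPM (14.7 to 19.4) at 8 weeks while COL4A1 was lower. The 8-week share in macrophage-like cells was 31.7% (26.0 to 37.9), and the part of such background in the Sertoli-like share was not tested.

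**Figure D3:**
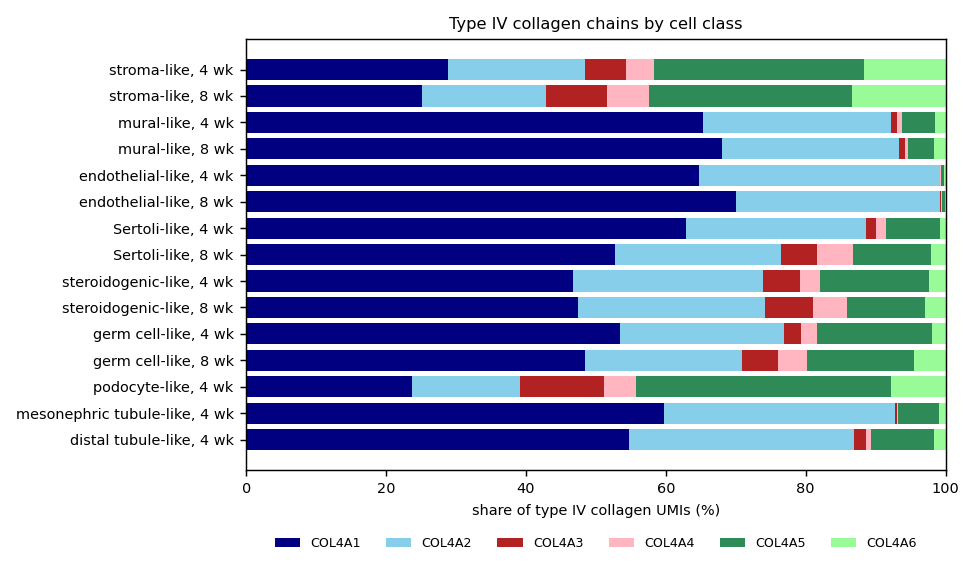
Share (%) of type IV collagen UMIs taken by each of the 6 chains in 15 combinations of class and stage, as stacked bars that fill 100%. COL4A1 and COL4A2 nearly fill the endothelial-like bars, where the other 4 chains hold 0.834% and 0.751%, while those 4 chains hold 60.9% in podocyte-like cells and 51.5% and 57.1% in stroma-like cells.

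COL15A1 and COL18A1 encode collagens that carry sugar side chains, sit in basement membranes and release anti-angiogenic fragments. COL15A1 was at 147 CPM (142 to 152) at 4 weeks and 535 CPM (515 to 556) at 8 weeks in endothelial-like cells, 3.65-fold higher at 8 weeks (3.46 to 3.84). The next highest class held 10.1 CPM at 4 weeks (macrophage-like) and 11.6 CPM at 8 weeks (stroma-like), so COL15A1 was nearly limited to endothelial-like cells. Thinned to 1000 UMIs, 10.1% (8.54 to 11.8) and 39.1% (34.5 to 43.8) of these cells had a COL15A1 UMI. COL18A1 was spread more widely, at 419 CPM (411 to 428) at 4 weeks and 476 CPM (457 to 496) at 8 weeks in endothelial-like cells and at 127 and 186 CPM in Sertoli-like cells. It was 1.46-fold higher at 8 weeks (1.37 to 1.55) in Sertoli-like cells, but 2.46-fold lower at 8 weeks (2.1 to 2.88) in mural-like cells, which held 248 and 101 CPM. Tubule-like, distal tubule-like and podocyte-like cells held COL18A1 at 276, 268 and 247 CPM.

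Among the other collagens, the type VI chains form beaded filaments around cells. COL6A1 and COL6A2 were at 123 and 104 CPM and at 147 and 112 CPM in mural-like cells, and COL6A3 was at 158 and 154 CPM in stroma-like cells. COL6A6, an alternative partner of COL6A1 and COL6A2, was at 582 CPM (570.5 to 593) at 4 weeks and 293 CPM (289.5 to 297) at 8 weeks in stroma-like cells, 1.98-fold lower at 8 weeks (1.94 to 2.03). The next class, mural-like cells, held 55.5 and 52.1 CPM of it. Steroidogenic-like cells held COL6A2 at 65.0 CPM (56.0 to 75.0) at 4 weeks and 109 CPM (100.1 to 118) at 8 weeks, above the macrophage-like 5.64 and 13.3 CPM, while their COL6A1 was at 2.43 and 17.3 CPM.

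The collagens that attach to fibre surfaces or resemble those that do were each high in different classes. COL12A1 was at 58.9 CPM (55.6 to 62.3) at 4 weeks and 171 CPM (159.98 to 184) at 8 weeks in endothelial-like cells and at 75.1 and 123 CPM in mural-like cells. COL21A1 was at 120.1 CPM (114 to 126) at 4 weeks and 79.0 CPM (74.2 to 84.1) at 8 weeks in Sertoli-like cells and at 95.7 CPM (78.4 to 116) at 4 weeks and 173 CPM (159.7 to 187) at 8 weeks in mural-like cells, which is 1.52-fold lower at 8 weeks (1.40 to 1.65) in Sertoli-like and 1.81-fold higher at 8 weeks (1.47 to 2.24) in mural-like cells. The class with the highest COL21A1 level was thus Sertoli-like at 4 weeks and mural-like at 8 weeks. COL22A1 was highest in Sertoli-like cells at both stages, at 66.2 CPM (61.8 to 70.8) at 4 weeks and 45.4 CPM (41.7 to 49.2) at 8 weeks, with mural-like cells next at 22.4 and 11.7 CPM.

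COL9A2, a type IX chain known from cartilage, was at 59.7 and 52.9 CPM in germ cell-like and 57.9 and 50.3 CPM in Sertoli-like cells. These 2 classes did not differ in COL9A2 beyond their counting intervals at either stage, and the partner chain COL9A1 stayed under 10 CPM everywhere. COL9A3 was instead highest in stroma-like cells, at 20.6 and 37.5 CPM. COL20A1 was nearly limited to steroidogenic-like cells, at 41.7 CPM (34.6 to 49.9) at 4 weeks and 35.5 CPM (30.7 to 40.8) at 8 weeks, and no other class passed 3.27 CPM. COL16A1 was highest in stroma-like cells, at 87.1 and 116 CPM, and COL14A1 in mural-like cells, at 35.8 and 62.4 CPM, while stroma-like cells held 32.0 and 12.2 CPM of COL14A1.

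Of the collagens that span the cell membrane, COL25A1 was highest in mural-like and germ cell-like cells. It was at 234 CPM (207 to 265) at 4 weeks and 89.3 CPM (79.9 to 99.5) at 8 weeks in mural-like cells and at 153 CPM (145 to 162) at 4 weeks and 60.2 CPM (55.7 to 65.1) at 8 weeks in germ cell-like cells. It was lower at 8 weeks in both, 2.62-fold lower at 8 weeks (2.22 to 3.10) and 2.55-fold lower at 8 weeks (2.31 to 2.80), and also in Sertoli-like cells (26.1 and 6.60 CPM), stroma-like cells (45.6 and 17.1 CPM) and steroidogenic-like cells (48.0 and 21.7 CPM). Endothelial-like cells held the opposite order, at 13.3 and 22.5 CPM. COL13A1 was highest in podocyte-like cells, at 119 CPM (103 to 137), and COL23A1 in mural-like cells at 4 weeks, at 60.8 CPM (47.2 to 77.1) at 4 weeks and 7.60 CPM (5.05 to 11.0) at 8 weeks. COL17A1 stayed under 10 CPM in every class. COL26A1 was at 196 CPM (175 to 219) in podocyte-like cells and at 114 and 93.8 CPM in stroma-like cells.

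The short-chain collagens COL8A1 and COL8A2 were low. COL8A1 was at 34.0 CPM (24.1 to 46.7) at 4 weeks and 4.34 CPM (2.48 to 7.05) at 8 weeks in mural-like cells, from 38 and 16 UMIs, and COL8A2 was highest in podocyte-like cells at 36.3 CPM (27.6 to 46.8). COL6A5 was highest in stroma-like cells at 11.8 and 18.6 CPM, and COL19A1 in mural-like cells at 8 weeks at 19.8 CPM. In all, 24 of the 43 genes reached 100 CPM in some class, 14 reached 10 to 100 CPM, and COL9A1, COL10A1, COL11A2, COL17A1 and COL28A1 stayed below 10 CPM.

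**Figure D4:**
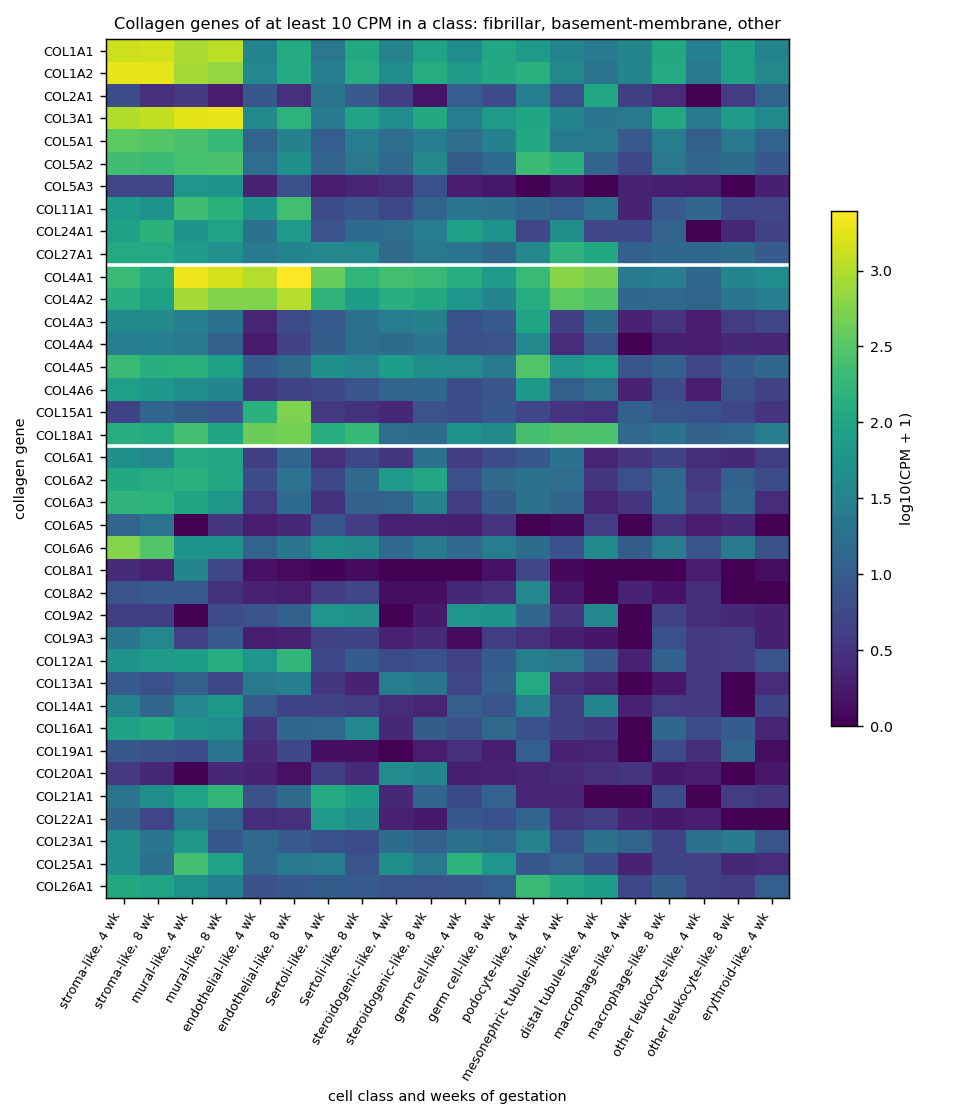
Level of each collagen gene of at least 10 CPM (38 genes, fibrillar, basement-membrane and other from top to bottom) in 20 combinations of cell class and stage, coloured by log10(CPM + 1). Colours compare classes along a gene's line and not genes with each other, because gene length is not corrected, and they show COL15A1 in endothelial-like, COL20A1 in steroidogenic-like and COL5A3 in mural-like cells as lines with nearly 1 bright class.

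Between the stages, a gene was compared in a class if it had at least 10 UMIs over both libraries, and a 2-fold ratio served as the mark. In stroma-like cells 2 of 41 collagen genes were at least 2-fold higher at 8 weeks and 7 at least 2-fold lower, when 6.06% and 13.2% of all genes compared in the class were. The higher genes were COL15A1 and COL21A1, and the lower ones COL2A1, COL9A1, COL14A1, COL20A1, COL22A1, COL23A1 and COL25A1. COL21A1 was at 18.9 CPM (16.9 to 21.1) at 4 weeks and 47.0 CPM (45.6 to 48.5) at 8 weeks and COL14A1 was 2.62-fold lower at 8 weeks (2.36 to 2.91). The median log2 ratio of the 41 was -0.17, beside -0.13 for all genes. The collagen shares lay near those of all genes. A further mark, chosen after seeing the data, asked also that the higher of the levels be at least 3 times the macrophage-like level of its library, and 1 higher and 4 lower genes of the 41 met it, when 2.81% and 7.99% of all genes did.

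In mural-like cells 2 of 35 were past 2-fold higher and 7 past 2-fold lower, when 7.69% and 11.5% of all genes were. The higher genes were COL9A2 and COL19A1. The lower ones were COL4A4, COL8A1, COL8A2, COL13A1, COL18A1, COL23A1 and COL25A1, and all 8 basement-membrane genes were lower at 8 weeks, 2 of them past 2-fold, when 56.6% of all genes were lower. With the macrophage mark 1 gene remained higher and 7 lower, when 2.78% and 5.56% of all genes met it. The median log2 ratio was -0.40, beside -0.14 for all genes. Stroma marker genes summed to 503 CPM and 618 CPM in mural-like cells, with 0 of 10 markers at 0 in either library, and their part in these levels was not tested.

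In endothelial-like cells 19 of 40 were at least 2-fold higher at 8 weeks and 4 at least 2-fold lower, when 9.16% and 13.4% of all genes were. The median log2 ratio was 0.90, beside -0.06 for all genes. The 19 fall into those whose 8-week level was near or below 3 times that of macrophage-like cells and those above it. Of the first kind, COL1A1 was at 32.6 and 120.3 CPM, COL1A2 at 37.6 and 122 CPM and COL3A1 at 40.4 and 155 CPM, each within 1.5 times of the 8-week macrophage-like level. Under the mark of 3 times the macrophage-like level 8 of 40 remained higher and 2 lower, when 3.95% and 6.7% of all genes met that mark.

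The endothelial-like genes above that mark included COL4A1 and COL15A1, given above, and COL11A1, COL12A1 and COL24A1. COL11A1 was at 56.7 CPM (53.5 to 60.1) at 4 weeks and 227 CPM (214 to 241) at 8 weeks, 4.01-fold higher at 8 weeks (3.69 to 4.36), when macrophage-like cells held 1.13 and 7.84 CPM. COL12A1 was 2.91-fold higher at 8 weeks (2.66 to 3.19), with macrophage-like cells at 1.13 and 10.2 CPM. COL24A1 was at 17.6 CPM (15.8 to 19.5) at 4 weeks and 64.9 CPM (57.9 to 72.6) at 8 weeks, with macrophage-like cells at 4.51 and 10.7 CPM. COL18A1 was 1.14-fold higher at 8 weeks (1.08 to 1.19), a smaller difference than that of the other endothelial-like genes named here.

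Markers of neighbouring classes also differed in endothelial-like cells. Stroma markers summed to 45.0 CPM at 4 weeks and 159 CPM at 8 weeks, with 0 of 10 markers at 0 in both libraries. Mural markers summed to 70.2 and 295 CPM, with 0 and 1 of 16 markers at 0. The 8-week endothelial-like levels of COL4A1, COL4A2, COL11A1, COL12A1 and COL15A1 were above the mural-like and stroma-like levels of the same library. COL24A1 was below both, and the part of such RNA in its level was not tested. A gate of 2 times the marker level gave an endothelial-like basement-membrane sum of 2075 and 5425 CPM, and equal weight for each cell gave 2024 and 6021 CPM.

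**Figure D5:**
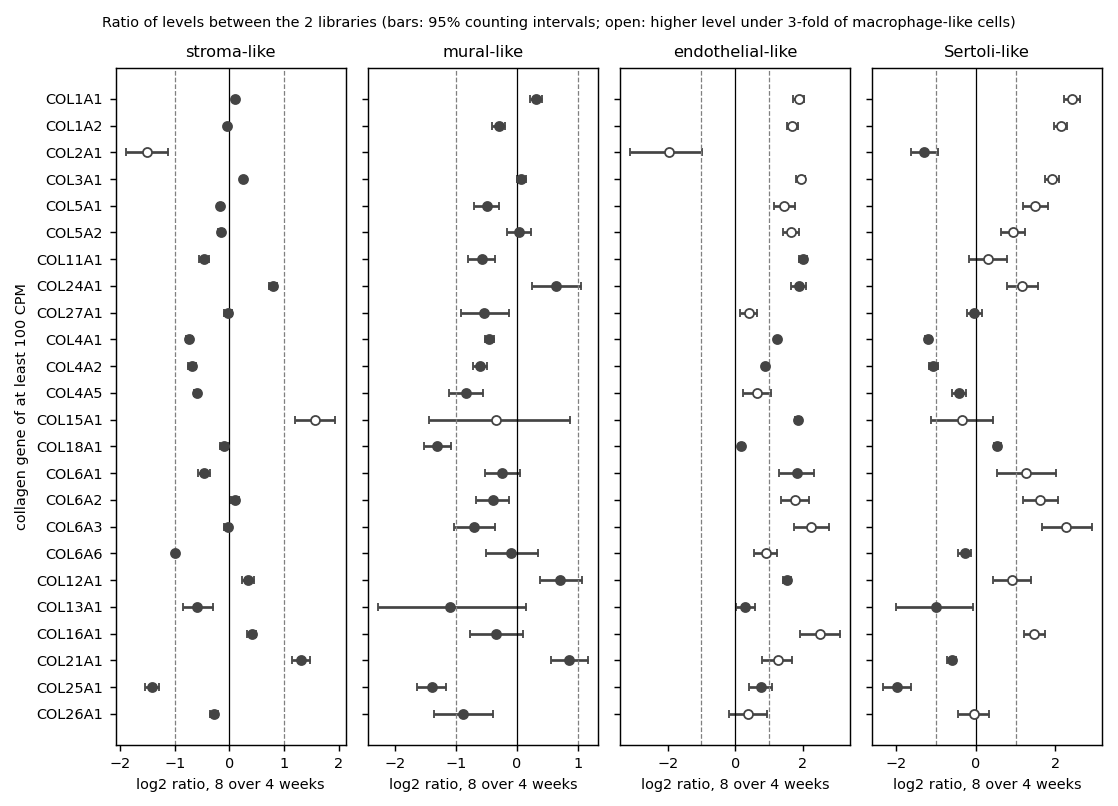
Log2 ratio of 8 over 4 weeks for the 24 collagen genes of at least 100 CPM in some class, in 4 cell classes, with bars giving 95% counting intervals and dashed lines at 2-fold. Open points mark genes whose higher level was under 3 times that of macrophage-like cells. In endothelial-like cells most points lie to the right of 0, many of them open, while the filled Sertoli-like points for COL4A1 and COL4A2 lie to the left of the 2-fold line.

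In Sertoli-like cells 10 of 41 were past 2-fold higher and 6 past 2-fold lower, when 7.91% and 12.9% of all genes were. The higher genes included COL1A1, COL1A2 and COL3A1, at 112, 124 and 93.8 CPM at 8 weeks, all within 1.5 times of the macrophage-like level. Under the mark of 3 times the macrophage-like level 1 gene of 41 remained higher, COL4A3, and 5 lower, when 2.93% and 6.65% of all genes met it. The lower genes as first counted were COL2A1, COL4A1, COL4A2, COL6A5, COL20A1 and COL25A1. The median log2 ratio of the 41 was 0.03, beside -0.13 for all genes.

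Steroidogenic-like cells had 11 of 33 genes past 2-fold higher and 3 past 2-fold lower, when 6.43% and 9.01% of all genes were, and 2 and 2 remained past the macrophage mark, which 1.89% and 3.86% of all genes met. Germ cell-like cells had 10 of 41 higher and 3 lower, when 10.3% and 10.9% of all genes were, and 1 and 3 remained, when 5.04% and 6.46% of all genes met that mark. As first counted, the higher share in germ cell-like cells, 24.4%, lay above that of all genes. After the macrophage mark both germ cell-like shares lay near or below those of all genes. The 3 lower genes in germ cell-like cells were COL19A1, COL25A1 and COL28A1. Macrophage-like cells themselves had 18 of 30 higher and 2 lower, when 9.38% and 12.1% of all genes were. Other leukocyte-like cells had 10 of 18 higher and 1 lower, when 7.86% and 15.6% of all genes were, and 0 and 1 remained past the macrophage mark, when 1.28% and 3.91% of all genes met it.

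Genes that make, cross-link, bind and remove collagen were followed in 6 lists. In stroma-like cells 16 of 18 genes for chain modification and folding were higher at 8 weeks, when 42.8% of all genes were, and the median log2 ratio of the list was 0.36. Past 2-fold higher, as 6.06% of all genes were, stood 2 of the 18: COLGALT2, which adds sugars to the chains, and FKBP10, a folding helper, at 28.7 CPM (26.3 to 31.4) at 4 weeks and 60.3 CPM (58.7 to 62.0) at 8 weeks. SERPINH1, the collagen chaperone, was at 253 and 415 CPM. Of 11 secretion and processing genes 6 were higher, a share not far from that of all genes. None of the 11 was past 2-fold, when 6.06% of all genes were higher and 13.2% lower. Among 7 cross-linking genes 1, LOXL4, was past 2-fold lower, a share near the 13.2% of all genes. LOXL1, an amine oxidase of matrix proteins, was at 149 and 254 CPM. TIMP1, an inhibitor of the matrix-cutting MMP enzymes, was at 211 and 429 CPM. It was the 1 of 11 turnover genes past 2-fold higher, when 6.06% of all genes were.

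In endothelial-like cells all 12 basement-membrane partners compared were higher at 8 weeks, 7 of them past 2-fold, when 46.7% and 9.16% of all genes were. With the macrophage mark 5 of the 12 remained past 2-fold higher, when 3.95% of all genes met it. The median log2 ratio of the 12 was 1.13. LAMA4, the laminin chain of vessel basement membranes, was at 287 CPM (279.8 to 294) at 4 weeks and 643 CPM (621 to 666) at 8 weeks, when macrophage-like cells held 7.89 and 6.89 CPM. NID2, which links laminin to type IV collagen, was at 36.2 CPM (33.6 to 38.9) at 4 weeks and 108 CPM (98.5 to 117) at 8 weeks, with macrophage-like cells at 2.25 and 8.31 CPM. HSPG2, the basement-membrane proteoglycan perlecan, was at 313 and 475 CPM. SERPINH1 was at 272 CPM (265 to 279) at 4 weeks and 550.5 CPM (529.7 to 572) at 8 weeks, the only 1 of 18 modification and folding genes past 2-fold there.

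In endothelial-like cells 4 of 7 receptors and 9 of 11 turnover genes compared were higher at 8 weeks, when 46.7% of all genes were. Past 2-fold higher stood 2 receptors and 3 turnover genes, and past 2-fold lower 0 and 1, when 9.16% and 13.4% of all genes were. With the macrophage mark 1 receptor and 3 turnover genes remained higher and 0 and 1 lower, when 3.95% and 6.7% of all genes met it. ITGA1, the alpha subunit of a collagen-binding integrin, was at 92.6 and 210.00 CPM, and MMP2, which cuts type IV collagen, at 103 and 244 CPM. FAP, a surface protease, was at 13.1 and 105 CPM. MMP16, a membrane-bound MMP, had the opposite order, at 353 and 78.5 CPM. In mural-like cells none of 18 modification and folding genes was past 2-fold, when 7.69% of all genes were higher and 11.5% lower. SERPINH1 was at 253 and 461 CPM there.

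In Sertoli-like cells 7 of 12 basement-membrane partners were higher and 5 lower at 8 weeks, when 42.8% and 57.2% of all genes were, and their median log2 ratio was 0.08. LAMA1, a laminin chain of epithelial basement membranes, was at 31.3 CPM (28.3 to 34.5) at 4 weeks and 92.7 CPM (87.4 to 98.2) at 8 weeks, when macrophage-like cells held 5.64 and 3.09 CPM. LAMA4 was at 45.2 and 20.5 CPM. The laminin chains of these cells thus differed in direction, as their type IV chains did.

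Pairs of neighbouring collagen genes were compared over the 20 combinations of class and stage. As a description without a test, and over points that share libraries and depth, Pearson's r of log2(CPM + 1) was 0.99 for COL4A1 with COL4A2, 0.97 for COL4A3 with COL4A4, 0.92 for COL4A5 with COL4A6, 0.85 for COL6A1 with COL6A2, 0.84 for COL6A5 with COL6A6 and 0.83 for COL3A1 with COL5A2. The pair COL9A1 and COL19A1 gave -0.21. COL1A1 and COL1A2, which are not neighbours in the annotation, gave 0.98, and COL6A1 with COL6A3, also apart, gave 0.87, so high values were not limited to neighbours.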

How the data were processed

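The authors deposited raw UMI counts per gene and cell barcode, whole numbers that are not normalized, as the values themselves show. Per the file headers the software was Cell Ranger 7.1.0, while version 2.1.1 is named in the submitters' processing notes. The labels' protocols describe a DNBelab C droplet kit, which is not the chemistry Cell Ranger is written for, and the effect on UMI counting is unknown. Not given in the sources used here are the genome build, annotation, strand setting and use of intronic reads. The shallowest barcodes held 500 UMIs.

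A minimum of 200 genes per barcode removed 26 and 3. A cell was gated to a class if at least 3 of its markers had a UMI and their summed CPM reached a limit set for each class, and cells passing several gates were left out. No doublet caller was run. Levels are summed UMIs per 1000000, with exact Poisson intervals at 95%. Ratios carry exact conditional binomial intervals and shares Clopper-Pearson intervals. All of these cover counting error only. Log2 ratios had 0.5 UMI added to each sum, and a count of 0 was given the limit of 3 counts. Classes with at least 50 cells in each library were compared. Thinning drew 1000 UMIs per cell with seed 1. Python 3.11.15 with numpy 2.4.6, scipy 1.17.1, pandas 2.3.3 and matplotlib 3.10.9 was used, and the ratio code was tested on simulated data.

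The collagen genes and all lists were chosen with earlier results of these data known. The gate limits were set after the marker distributions, and a provisional version of the collagen levels by class, had been seen. Pericytes and smooth muscle or myoid cells were joined as mural-like after their leading genes were seen. Genes named with values are those of at least 100 CPM in a class, genes of 10 to 100 CPM are named by their highest class, and pathway genes are up to 4 per list by level and by stage ratio; the levels of LAMA1, LAMA4, HSPG2, MMP2, MMP16, FAP, LOXL1, TIMP1 and SERPINH1 in other classes were added for comparison. A RefSeq table of assembly EquAss-T2T_v2 matched 41 of 43 collagen names and served for neighbours only. COL7A1 is present only under a locus identifier that this table names, so it is outside the 43. CTAGE5 was not matched by name and was left out of its list. Alternatives were a gate of 2 times the marker level, equal weight per cell, 1000 genes per cell, removal of the 6% of cells with the most UMIs, subtraction of the erythroid-like or macrophage-like level, scaling by the median ratio, 50 UMIs per gene and other thinning depths.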

Additional observations from a re-analysis of the deposited data

Results flagged for a closer look

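COL4A1 lay in opposite directions in 2 classes, with a log2 ratio of 8 over 4 weeks of 1.25 in endothelial-like cells and -1.2 in Sertoli-like cells. COL11A1 was listed too, with 2 in endothelial-like cells and -1.29 in other leukocyte-like cells, at 12.2 and 4.42 CPM. The other leukocyte-like values rest on 14 and 3 UMIs. Their ratio of 8 over 4 weeks, 0.363 (0.0669 to 1.30), has an interval that includes no change. Each class gave 1 value per library, so the difference between classes was not tested in either case. The list was limited to genes of at least 10 CPM in the class after a longer list had been seen, which also held COL13A1, COL14A1 and COL19A1.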

How the results depend on the processing

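No paired analysis was possible because each group has 1 library, and no library could be left out. Apart from the macrophage mark, shares of all genes were not computed under these alternatives, so counts there describe collagen genes alone. With the stricter gate the stroma-like fibrillar sum was 5817 and 5578 CPM and the other-collagen sum 1457 and 1086 CPM, the endothelial-like basement-membrane sum 2075 and 5425 CPM. There 5 mural-like genes were 2-fold higher and 0 macrophage-like genes 2-fold lower, and COL13A1 in mural-like cells turned to a log2 ratio of 0.20. With cells weighted equally the sums were 5489 CPM (fibrillar, 8 weeks), 1331 and 1209 CPM (other) and 2024 and 6021 CPM (endothelial-like), 4 genes were 2-fold higher in stroma-like and 4 in mural-like cells, and COL25A1 in macrophage-like cells turned to -0.72. Without the 6% of cells with the most UMIs the sums were 4893 and 5033, 1346 and 1055, and 2069.9 and 4873 CPM.

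Subtracting a background level changed more single-gene calls than the gate, weighting or scaling did. With the erythroid-like level subtracted, which rests on 33 cells at 8 weeks, the sums were 4937 and 5034 CPM, 1327 and 997 CPM, and 2057 CPM (endothelial-like, 4 weeks). Then 16 of 41 Sertoli-like genes were 2-fold higher. Past 2-fold lower stood 1 of 40 endothelial-like, 5 of 41 germ cell-like and 7 of 30 macrophage-like genes. So did 3 of 18 other leukocyte-like and 6 of 33 steroidogenic-like genes. The matching shares of all genes were not computed. Log2 ratios of COL2A1 turned to 6.35, 1.66, 1.84 and 6.03 in endothelial-like, macrophage-like, steroidogenic-like and stroma-like cells. The 4-week COL2A1 levels of these 4 classes lay below the erythroid-like level of 11.3 CPM, so subtraction brought them to 0. At 8 weeks erythroid-like cells held 0 COL2A1 UMIs, so nothing was subtracted there. For COL16A1 the ratios turned to -0.42 and -1.43 in germ cell-like and steroidogenic-like cells, and for COL3A1 to -0.40 in germ cell-like cells. In macrophage-like cells they turned to -2.14 and -2.25 for COL24A1 and COL5A1.

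With the macrophage-like level subtracted, chosen after seeing the data, the sums were 4965 and 4875, 1336 and 943, and 2101 and 4446 CPM. Higher genes numbered 6 of 41 in germ cell-like, 4 of 18 in other leukocyte-like and 4 of 33 in steroidogenic-like cells. Lower genes numbered 16 of 41 in Sertoli-like, 11 of 40 in endothelial-like and 21 of 41 in germ cell-like cells. They numbered 6 of 18 in other leukocyte-like and 11 of 33 in steroidogenic-like cells. Subtraction can bring any gene to 0, and the matching shares of all genes were not computed. Log2 ratios turned to -0.034, -0.96, -4.13, -0.96, -0.51 and -3.63 for COL11A1, COL15A1, COL16A1, COL1A1, COL1A2 and COL3A1 in steroidogenic-like cells, and to -5.75, -2.40, -7.79, -6.26 and -3.80 for COL12A1, COL16A1, COL1A1, COL3A1 and COL6A3 in germ cell-like cells. They turned to -4.41, -0.53 and -2.82 for COL16A1, COL1A2 and COL6A3 in endothelial-like cells, -5.95 and -1.77 for COL3A1 and COL5A1 in Sertoli-like cells, and -1.60, -1.51 and -1.17 for COL3A1, COL5A1 and COL6A3 in other leukocyte-like cells. Values that subtraction brings to 0 make such ratios large.

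Counting only genes at 3 times the macrophage-like level, also chosen after seeing the data, left 1 Sertoli-like, 8 endothelial-like, 1 germ cell-like, 0 macrophage-like, 1 mural-like, 0 other leukocyte-like, 2 steroidogenic-like and 1 stroma-like gene higher, and 2 endothelial-like, 0 macrophage-like and 4 stroma-like genes lower. With at least 50 UMIs, 9 macrophage-like, 1 mural-like and 3 other leukocyte-like genes were higher, and 0, 0 and 1 macrophage-like, other leukocyte-like and steroidogenic-like genes lower. Thinning to 2000 UMIs gave 93.8% and 94.1% of stroma-like cells with a COL1A2 UMI and 66.9% and 92.7% of endothelial-like cells with COL4A1, and no thinning gave 99.3%, 99.0%, 87.1% and 95.7%, where 1000 UMIs gave 79.9%, 79.2%, 48.8% and 83.7%.

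Single-gene ratios were followed for the 24 collagen genes of at least 100 CPM in some class, and not for lower genes. Of 82 such ratios past 2-fold, 82 stayed past it in the same direction with 1000 genes per cell. After scaling by the median ratio 80 did, and with cells weighted equally 73. The stricter gate kept 73 of 80, erythroid-like subtraction 64 of 82 and macrophage-like subtraction 33 of 67. With 50 UMIs 66 of 66 stayed, and without the 6% of cells 78 of 81. For levels near those of macrophage-like cells, free RNA, doublets and expression by the cells themselves were not told apart.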
